A study of Mus musculus with 3 samples.

Results

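The Toll-like receptor genes described here are Tlr1, Tlr2, Tlr3, Tlr4, Tlr6, Tlr7 and Tlr13, with Cd14 and Ly96, which encode partners of these receptors, and Myd88, which encodes their main adaptor. These 10 genes were taken by symbol out of 22180 genes that had a probe set annotated to exactly 1 symbol, and each of the 10 had 1 such probe set. The study put agents related to caveolin-1, a membrane coat protein of caveolae, into the vitreous of C57 mouse eyes and measured retinal RNA on 3 Affymetrix whole-transcript arrays. The groups were AP, the control, taken 2 hr after injection, cavtratin, a cell-permeable peptide carrying the caveolin-1 scaffolding domain, also at 2 hr, and Cav1-shRNA, a short hairpin RNA against Cav1, at 2 days. Each group was 1 array of RNA from 5 to 6 retinae pooled before hybridisation, so no group had a replicate, and no test, error or p-value could be given for any difference. Every eye, the control included, had received an intravitreal injection, and the labels describe no uninjected retina. The labels do not spell out AP and give neither age, sex nor the vector of the hairpin. Time and agent cannot be told apart where Cav1-shRNA is compared with either other array.

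Toll-like receptors are membrane proteins that bind conserved molecules of microbes and of damaged cells through an outer leucine-rich domain and signal through an inner TIR domain. At the cell surface, TLR4 with its partner MD-2 detects lipopolysaccharide that CD14 hands over, and TLR2 pairs with TLR1 or TLR6 to detect lipopeptides. Inside endosomes TLR3 detects double-stranded RNA, TLR7 single-stranded RNA and TLR13, which mice have and humans lack, bacterial ribosomal RNA. All of these receptors but TLR3 use the adaptor MyD88, which leads to NF-kB and inflammatory cytokines, while TLR3 and internalised TLR4 use TRIF, which leads to type I interferon. In the retina these genes are known mostly from microglia and invading leukocytes, and some also from Muller glia and pigment epithelium.

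RefSeq promoter sequence, of build GRCm38.p6, was found for 6 of the 10 genes, in 8 windows because Tlr1 and Tlr6 have more than 1 annotated start; Cd14, Ly96, Tlr4 and Tlr7 had none in that table. In the 250 bases before each start, both strands were searched for 4 motifs of factors that act in myeloid cells or below these receptors. They were the NF-kB consensus, the interferon-stimulated response element GAAANNGAAA, a core element GAGGAAG of PU.1, the myeloid lineage factor, and the AP-1 element TGANTCA. Each motif but AP-1 occurred in 2 of the 8 windows. The shares of all 32851 RefSeq promoter windows of the same length with at least 1 match were 7.25% for NF-kB, 2.98% for the interferon element, 10.6% for PU.1 and 6.75% for AP-1. The stretches of 30 bases that hold the matches are shown in pairs by motif, and a link between motif and array values was not tested. Capitals mark the matched letters, and each line runs 5′ to 3′ on the strand of the gene.

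PU.1 core before Tlr13 (chrX:106143181-106143210, plus strand): aaaaaagagaaGAGGAAGgaaatgtctcat
PU.1 core before Tlr1 (chr5:64933563-64933592, minus strand): attaaatgttgGAGGAAGtaggagcttgaa
NF-kB before Tlr2 (chr3:83841761-83841790, minus strand): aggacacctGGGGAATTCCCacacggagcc
NF-kB before Tlr3 (chr8:45410572-45410601, minus strand): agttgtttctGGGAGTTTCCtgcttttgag
Interferon element before Tlr6 (chr5:64959260-64959289, minus strand): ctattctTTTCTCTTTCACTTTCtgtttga
Interferon element before Myd88 (chr9:119340039-119340068, minus strand): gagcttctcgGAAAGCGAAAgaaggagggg

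The PU.1 core began 83 bases before the start of Tlr13 and 23 bases before the more upstream start of Tlr1. In Tlr2 there were 2 overlapping NF-kB matches, at 173 and 172 bases before the start, and in Tlr3 there was 1, at 211 bases. Tlr6 also had 2 overlapping matches to the interferon element, read on the opposite strand, at 116 and 110 bases before the more downstream of its starts, and Myd88 had 1 at 40 bases. None of these matches overlapped a match to another motif. Tlr1 and Tlr6 are neighbours on chromosome 5 with 0 protein-coding genes between them. The whole upstream window is given for Tlr13, the receptor gene with the largest difference between arrays, and for Tlr2, whose order of arrays was unlike that of its partners Tlr1 and Tlr6.

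Tlr13 (chrX:106143025-106143274, plus strand): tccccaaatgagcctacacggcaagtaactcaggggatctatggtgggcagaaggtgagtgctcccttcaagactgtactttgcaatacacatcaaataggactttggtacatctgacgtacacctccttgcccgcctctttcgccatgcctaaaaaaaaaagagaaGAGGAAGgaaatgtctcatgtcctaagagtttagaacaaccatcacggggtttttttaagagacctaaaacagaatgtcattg
Tlr2 (chr3:83841609-83841858, minus strand): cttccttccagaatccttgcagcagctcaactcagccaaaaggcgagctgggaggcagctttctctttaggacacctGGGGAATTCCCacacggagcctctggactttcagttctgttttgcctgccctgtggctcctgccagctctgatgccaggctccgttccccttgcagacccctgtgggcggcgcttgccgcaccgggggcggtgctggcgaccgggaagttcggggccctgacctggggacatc

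The arrays were close to one another over all probe sets, with medians from 6.01 to 6.07 and Pearson's r of 0.995 for each pair. Values are the deposited log2 values, read as log2 from their range, and a difference of 1 between 2 arrays is 2-fold. The expression floor was 6.50, the median level of probe sets with 1 symbol, and a fold taken from a value below it can be too small. The targeted transcript, Cav1, had 8.26 on each of the 3 arrays, so the array labelled Cav1-shRNA did not have a lower Cav1 value. Exactly equal values were common on these arrays, so they cannot show whether Cav1 RNA was lowered. Every direction involving the Cav1-shRNA array is drawn with this in view. The tissue label was checked on rod photoreceptor markers, and the 8 that could be measured lay between 10.1 and 13.2 on all 3 arrays. All 3 arrays held exactly the same value in 50.1% of genes, Cav1 among them, and at least 2 arrays did in 81.3%. The labels do not state how these equal values arose. Of the 10 receptor pathway genes, 0 had equal values on any 2 arrays.

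Set against AP control, the cavtratin array had higher values for Cd14, Tlr13 and Tlr6, each at least 2-fold, and smaller positive differences for Tlr4, Tlr1 and Ly96. Tlr2, Tlr7 and Myd88 were within 0.04 of their AP control values, and Tlr3 alone was lower. In bulk retina, more cells of a type and more RNA per cell cannot be told apart. Of the 10 genes, 3 were at least 2-fold higher, where 0.703% of all genes were (156 of 22180), and 0 of 10 were at least 2-fold lower, where 0.0496% were. At 1.5-fold, 5 of 10 were higher (Tlr1, Tlr6, Tlr13, Cd14 and Ly96) against 1.13% of all genes, and 0 were lower against 0.122%. The median difference of the 10 was 0.73, beside 0 over all genes, of which 61.6% had exactly equal values on these 2 arrays.

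In the array labelled Cav1-shRNA the same genes were higher than in AP control but by less, and Tlr2 was lower. Tlr13 was the 1 gene of 10 at least 2-fold higher, where 0.176% of all genes were, and 0 of 10 were at least 2-fold lower, where 0.0631% were. At 1.5-fold, Tlr1, Tlr13 and Ly96 were higher, 3 of 10 against 0.464% of all genes, and Tlr2 was lower, 1 of 10 against 0.189%. The median difference of the 10 was 0.47, beside 0 over all genes, of which 59.1% had exactly equal values on these 2 arrays. Both comparisons use the 1 AP control array, so a deviation of that array would enter both. The genes were chosen with earlier results of these data known, so neither share shows that receptor genes stand apart.

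**Figure D1:**
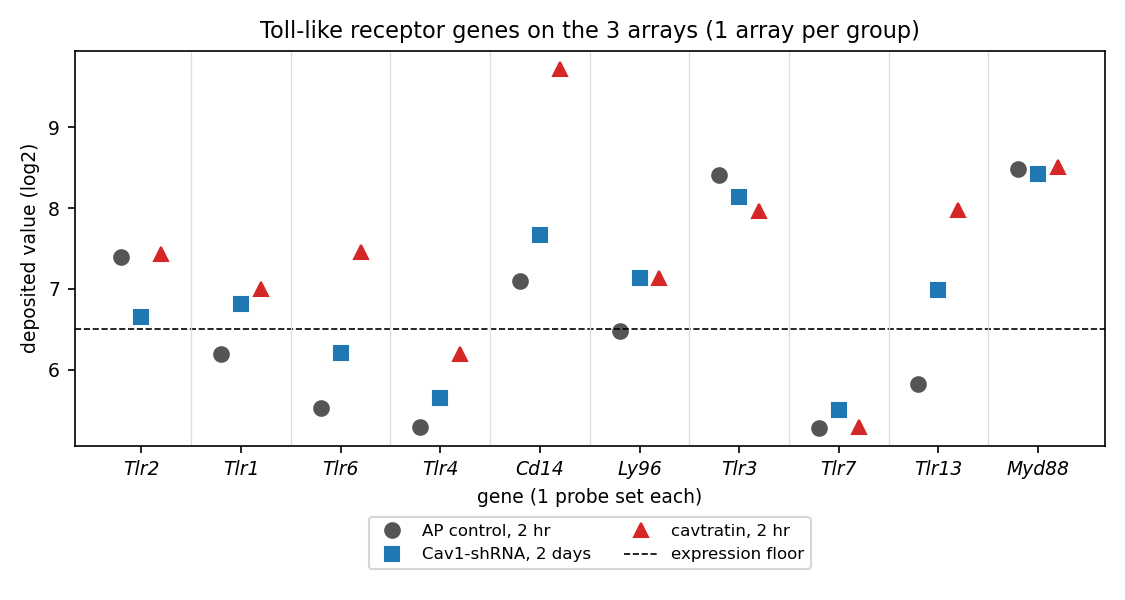
Deposited log2 values (vertical axis) of the 10 genes (horizontal axis) on the AP control array at 2 hr (circles), the Cav1-shRNA array at 2 days (squares) and the cavtratin array at 2 hr (triangles), 1 array per group, with the expression floor of 6.50 as a dashed line. Cd14, Tlr13 and Tlr6 spread the most, with cavtratin highest, while Myd88 spans 0.079 and Tlr4 and Tlr7 lie below the floor on all 3 arrays.

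Cd14, the co-receptor that carries lipopolysaccharide to TLR4, had the largest difference. Its value was 7.09 in AP control, 7.67 with Cav1-shRNA and 9.73 with cavtratin, all above the floor. The cavtratin array stood far above the other two: it was 2.64 higher than AP control, or 6.22-fold, which placed Cd14 23rd from the top among all genes. The difference of Cav1-shRNA from AP control was 0.58, or 1.49-fold, just short of 1.5-fold. Ly96 encodes MD-2, the protein that binds lipopolysaccharide beside TLR4. Its values were 6.48 in AP control, 7.13 with Cav1-shRNA and 7.14 with cavtratin. Here the 2 treated arrays were alike and both were higher than AP control, by 0.65 and 0.66, the control value lying just under the floor. Tlr4 itself, the lipopolysaccharide receptor, had 5.28 in AP control, 5.65 with Cav1-shRNA and 6.19 with cavtratin. The order of the arrays was that of Cd14, with differences of 0.37 and 0.91 from AP control, but all 3 values lay below the floor, so no fold of Tlr4 was counted. Of the 3 genes of the lipopolysaccharide receptor complex, Cd14 was the 1 that lay above the floor on every array.

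The lipopeptide receptors differed among themselves. Tlr6, a partner of TLR2, had 5.53 in AP control, 6.21 with Cav1-shRNA and 7.45 with cavtratin. Cavtratin alone passed the floor, 1.93 above AP control, or 3.81-fold, and Tlr6 ranked 64th from the top. Tlr1, the other partner of TLR2, had 6.19 in AP control, 6.82 with Cav1-shRNA and 6.99 with cavtratin. Both treated arrays were above the floor and above AP control, by 0.62 and 0.80. Tlr2, the common partner, had 7.39 in AP control, 6.65 with Cav1-shRNA and 7.43 with cavtratin. For Tlr2 the low array was Cav1-shRNA, at −0.74 from AP control, or 1.67-fold lower, the 41st lowest difference of all genes, while AP control and cavtratin were only 0.035 apart. So on the Cav1-shRNA array Tlr2 lay on the other side of AP control from Tlr1 and Tlr6.

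Among the receptors of endosomes, Tlr13 had 5.82 in AP control, 6.99 with Cav1-shRNA and 7.98 with cavtratin. The arrays were about evenly spaced, each step close to 2-fold: 1.16 between AP control and Cav1-shRNA and 0.99 between Cav1-shRNA and cavtratin. Cavtratin was 2.15 above AP control, or 4.45-fold, the 43rd highest difference, and the AP control value was below the floor. Tlr3, the receptor for double-stranded RNA, went the other way, with 8.41 in AP control, 8.14 with Cav1-shRNA and 7.96 with cavtratin. Its differences from AP control were −0.28 and −0.45. They were small as folds, 1.21 and 1.37, but the cavtratin difference was the 91st lowest of 22180. Tlr7, the receptor for single-stranded RNA, had 5.28 in AP control, 5.50 with Cav1-shRNA and 5.28 with cavtratin, all below the floor, with Cav1-shRNA 0.22 above AP control.

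Myd88, the adaptor below all of these receptors but TLR3, had 8.48 in AP control, 8.42 with Cav1-shRNA and 8.50 with cavtratin. It spanned 0.079 over the 3 arrays, the narrowest range of the 10 genes. Its difference of −0.054 between Cav1-shRNA and AP control became 0.0040 when each array was centred on its median, which adds 0.058 to every gene of this comparison, and was −0.036 after quantile normalization. As a yardstick without replicates, 2 probe sets of one gene gave differences that spread with an SD of 0.14 for cavtratin and 0.088 for Cav1-shRNA against AP control, over 280 genes. Probe sets with equal values on both arrays were kept in it. That can make the SD too small for the 10 genes, none of which had equal values. The spread between animals or between pools is not part of that SD. The differences of Tlr2, Tlr7 and Myd88 in cavtratin and of Myd88 in Cav1-shRNA were smaller than it.

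**Figure D2:**
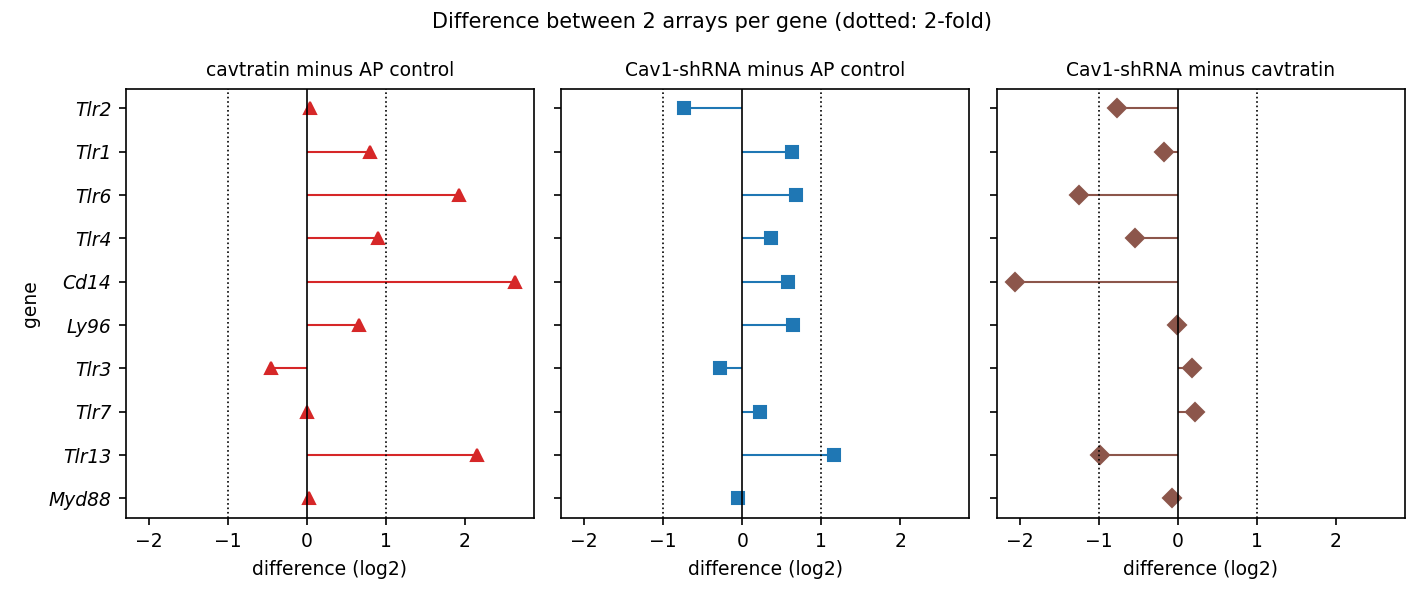
Differences of log2 values between 2 arrays (horizontal axes) for the 10 genes (vertical axis), in 1 panel per comparison, with dotted lines at 2-fold. Cd14, Tlr13 and Tlr6 pass 2-fold in cavtratin against AP control, Tlr13 does in Cav1-shRNA against AP control, and Tlr6 and Cd14 are lower by over 2-fold in Cav1-shRNA against cavtratin.

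Directly against cavtratin, without the AP control array, the array labelled Cav1-shRNA had lower values for most of these genes. Cd14 was at −2.06, or 4.16-fold lower in Cav1-shRNA, the 13th lowest of all genes, and Tlr6 was at −1.25, or 2.38-fold lower. The Cav1-shRNA value of Tlr6, 6.21, lay below the floor. Tlr13 was at −0.99, just under 2-fold, Tlr2 at −0.77 and Tlr4, below the floor, at −0.54. Hence 2 of 10 genes were at least 2-fold lower, where 0.406% of all genes were, and 0 of 10 were at least 2-fold higher, where 0.018% were. At 1.5-fold, 4 of 10 were lower (Tlr2, Tlr6, Tlr13 and Cd14) against 0.789%, and 0 were higher against 0.0496%. Tlr7 and Tlr3 were the 2 genes above 0, at 0.21 and 0.17, and Ly96 was at −0.0095, a sign that turned when arrays were centred or quantile normalized. In 7 of the 10 genes the Cav1-shRNA value lay between those of AP control and cavtratin, and in 6 of these (Tlr1, Tlr4, Tlr6, Tlr13, Cd14 and Ly96) AP control was lowest. Among the 4143 genes with 3 different values these shares were 37.1% and 20.1%.

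The rest of the pathway was described by 8 lists, beginning with the other Toll-like receptors and their relatives. Tlr5, Tlr8, Tlr9, Tlr11 and Tlr12 lay below the floor on all 3 arrays, as did Cd180, a relative of TLR4 in B cells and myeloid cells. Ly86, which encodes MD-1, the partner of CD180, was the 1 gene of 7 above the floor, with 8.43 in AP control, 8.87 with Cav1-shRNA and 8.38 with cavtratin. Its high array was Cav1-shRNA, by 0.44, unlike Ly96. The list held 0 genes at least 2-fold apart in either comparison with AP control, and its medians were 0 in cavtratin and 0.097 in Cav1-shRNA. Below the floor, Tlr8, a close relative of Tlr7, had 4.76 in AP control, 5.35 with Cav1-shRNA and 5.00 with cavtratin.

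Genes for ligands and their delivery had a median of 0.013 in both comparisons over 6 measured genes. The members far apart were S100a8 and S100a9, calcium-binding proteins of neutrophils that are also described as TLR4 ligands. S100a8 had 5.98 in AP control, 7.44 with Cav1-shRNA and 9.72 with cavtratin, and S100a9 had 5.77, 6.02 and 7.46 in the same order. Both are in the neutrophil and monocyte list too. Lbp, the plasma protein that passes lipopolysaccharide to CD14, was at 5.48 and Cd36, a scavenger receptor that assists TLR2 with TLR6, at 5.77 on all 3 arrays.

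Genes for receptor trafficking and cleavage had medians of 0.24 in cavtratin and 0.18 in Cav1-shRNA over 9 genes. In each comparison 6 of the 9 lay above 0, none lay below it and 0 reached 2-fold. Of all genes, 17.5% lay above 0 and 20.9% below it in cavtratin, and 22.4% and 18.5% in Cav1-shRNA. Ctss, a lysosomal cathepsin that processes endosomal receptors, had 8.24 in AP control, 9.10 with Cav1-shRNA and 8.57 with cavtratin. Unc93b1, which carries TLR3, TLR7 and TLR13 to endosomes, had 6.77, 7.30 and 7.04 in the same order. In both genes the high array was Cav1-shRNA, by 0.87 and 0.53 over AP control.

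Adaptors and proximal kinases had a median of 0 in both comparisons. Of the 15 measured genes, 8 had a difference of exactly 0 in cavtratin and 10 in Cav1-shRNA, where 61.6% and 59.1% of all genes did. Traf6, Irak1, Map3k7, Ikbkb and Ikbkg, which relay the signal from MyD88 to NF-kB, were each equal on all 3 arrays. Ticam1, which encodes TRIF, and Ticam2, which links TRIF to TLR4, lay below the floor. The 1 gene at least 2-fold apart was Ikbke, a kinase of interferon regulatory factors, with 6.15 in AP control, 7.38 with Cav1-shRNA and 8.17 with cavtratin. It was at least 2-fold higher in both, by 2.02 in cavtratin and 1.23 in Cav1-shRNA. Of all genes, 0.703% and 0.176% were at least 2-fold higher.

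Brakes on receptor signalling had a median of 0.38 in cavtratin over 15 genes. Of these, 3 were at least 2-fold higher, 0 at least 2-fold lower and 5 at exactly 0. Of all genes, 0.703% were at least 2-fold higher, 0.0496% at least 2-fold lower and 61.6% at exactly 0. Irak3, which encodes IRAK-M, an inhibitor of MyD88 signalling in myeloid cells, had 5.98 in AP control, 6.80 with Cav1-shRNA and 7.99 with cavtratin. Lilrb4a, an inhibitory receptor of myeloid cells, had 9.53, 10.41 and 11.70 in the same order, and Nfkbia, the NF-kB inhibitor, 8.94, 9.19 and 10.09. In these 3 genes the cavtratin array was highest and AP control lowest. Tnfaip3, which encodes the deubiquitinase A20, was at 10.34 in AP control and Cav1-shRNA and at 10.38 in cavtratin. In Cav1-shRNA the list median was 0, with 0 genes at least 2-fold apart.

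Transcription factors below the receptors had medians of 0.11 in cavtratin and 0 in Cav1-shRNA over 12 genes, with 0 at least 2-fold apart. Cebpb, a factor of myeloid and acute-phase genes, had the largest difference, 0.71 in cavtratin, with 6.67 in AP control, 6.81 with Cav1-shRNA and 7.38 with cavtratin. Spi1, which encodes PU.1, had 6.56 in AP control, 6.95 with Cav1-shRNA and 7.13 with cavtratin, the order of arrays that 6 of the 10 receptor pathway genes had. Cebpb, Irf7 and Jun had that order too. Of the 6 receptor pathway genes, Tlr13 and Tlr1 have an upstream window with the PU.1 core and Tlr6 has none. For Cd14, Ly96 and Tlr4 no promoter sequence was found. The core occurred in 10.6% of all promoter windows, and a link between it and these values was not tested. Irf3, Irf1 and Relb were equal on all 3 arrays.

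The NF-kB dependent target genes had a median of 1.69 in cavtratin over 15 genes. In this list 8 were at least 2-fold higher and 1, the cytokine gene Il6, at least 2-fold lower, where 0.703% and 0.0496% of all genes were. The 8 were Tnf, Il1a, Il1b, Il1rn, Cxcl2, Ccl3, Ccl4 and Ptgs2, which encode cytokines, an interleukin-1 antagonist, chemokines and the prostaglandin synthase COX-2. Their differences from AP control lay between 1.69 and 2.57. Tnf, for instance, had 7.34 in AP control, 7.87 with Cav1-shRNA and 9.38 with cavtratin. In Cav1-shRNA the list median was −0.038, with Il1rn at least 2-fold higher, at 1.25, and Il6 and Cxcl1 at least 2-fold lower, at −2.98 and −1.19. Cxcl1, a neutrophil chemokine, was at −0.90 in cavtratin.

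The list of TRIF and interferon dependent targets, some of which also need NF-kB, had a negative median in both comparisons. Its medians over 12 genes were −0.56 in cavtratin, with 4 genes at least 2-fold lower, and −0.75 in Cav1-shRNA, with 5, and 0 were at least 2-fold higher in either. Of all genes, 0.0496% and 0.0631% were at least 2-fold lower. In each comparison 8 of the 12 lay below 0, where 20.9% and 18.5% of all genes did. Exactly 0 in both were 3 genes, Ifit2, Ifit3 and Ifnb1. The 1 gene above 0 was Rsad2 in cavtratin and Ccl5, at 0.65, in Cav1-shRNA. The chemokine genes Cxcl10, Ccl2 and Ccl7 and Gbp5, an interferon-inducible GTPase, were lower in both, and Rsad2, the antiviral viperin, was lower in Cav1-shRNA, at −1.01, but 0.39 higher in cavtratin. Cxcl10 had 10.32 in AP control, 6.42 with Cav1-shRNA and 7.03 with cavtratin. Ifnb1, interferon beta itself, was at 3.53 on all 3 arrays, below the floor. Tlr3, a receptor of this branch, was the 1 of the 10 receptor pathway genes that also had its highest value in AP control.

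**Figure D3:**
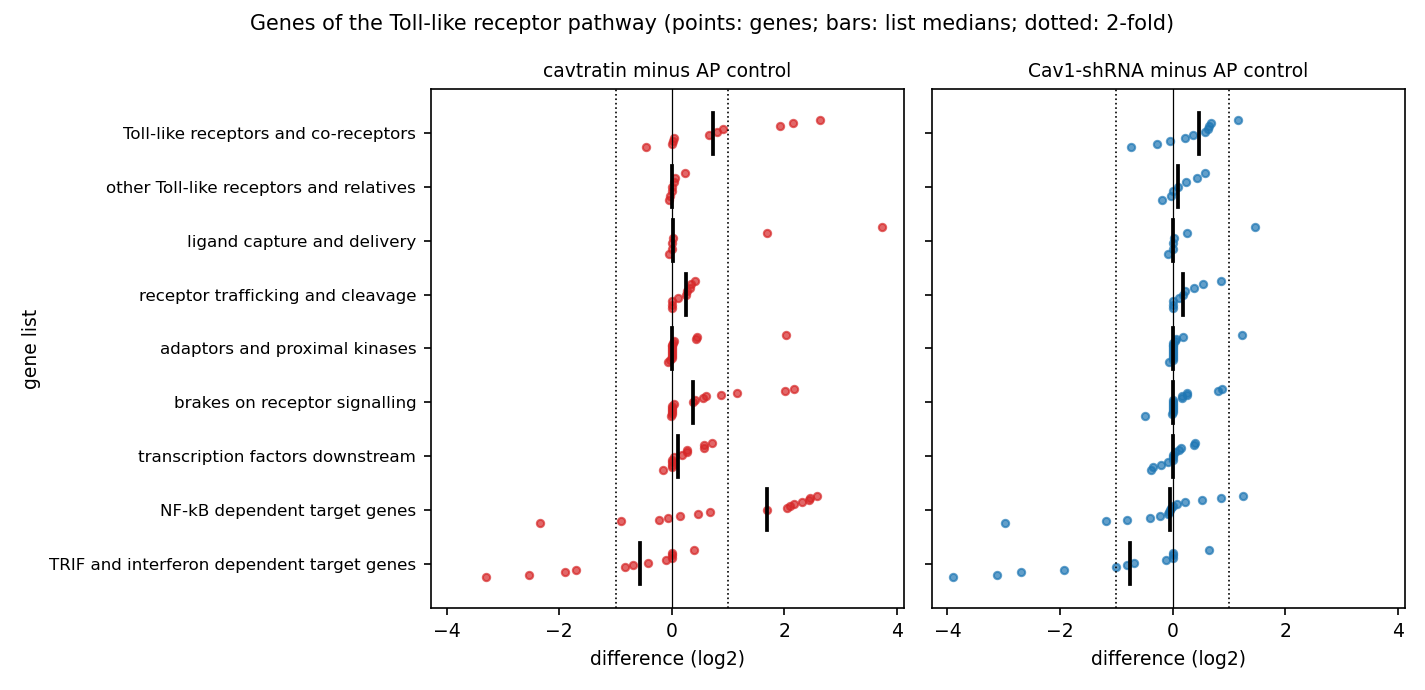
Differences from AP control on the log2 scale (horizontal axes) for each gene (points) of the receptor genes and of the 8 pathway lists (vertical axis), for cavtratin on the left and Cav1-shRNA on the right, with list medians as black bars and dotted lines at 2-fold. The NF-kB targets have a median of 1.69 in cavtratin and −0.038 in Cav1-shRNA, and the adaptors and kinases have medians of 0. Of the 12 interferon targets, 8 lie below 0, 3 at 0 and 1 above 0 in each comparison.

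Some markers of leukocytes lay above their AP control values with cavtratin, while others were equal to them or below. Their values are given here by list. Neutrophil and monocyte markers had medians of 0.67 in cavtratin and 0.23 in Cav1-shRNA over 14 measured genes. At least 2-fold higher were 6 and 2 of them, where 0.703% and 0.176% of all genes were. The 14 markers lay between 4.92 and 10.9 in AP control, between 4.94 and 11.2 with Cav1-shRNA and between 5.47 and 11.5 with cavtratin. Their mean level was 6.42, 6.84 and 7.47. At or above the floor were 6 of the 14 in AP control, 7 with Cav1-shRNA and 10 with cavtratin. Of all 22180 genes, 11298, 11362 and 11406 were, in the same order. Csf3r, the granulocyte colony-stimulating factor receptor, had 7.15 in AP control, 7.71 with Cav1-shRNA and 9.10 with cavtratin, whereas the neutrophil antigen gene Ly6g was below the floor on all 3, at 4.92, 4.94 and 5.47. Ly6c2, a marker of inflammatory monocytes, was highest in Cav1-shRNA, at 8.08, against 6.59 in AP control and 6.16 in cavtratin.

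Microglia and macrophage markers had medians of 0.042 in cavtratin and 0.42 in Cav1-shRNA over 17 genes. At least 2-fold higher were 5 and 3 of them, where 0.703% and 0.176% of all genes were. The mean level of the 17 markers was 6.99 in AP control, 7.46 with Cav1-shRNA and 7.54 with cavtratin. These markers ranged from 5.72 to 8.81 in AP control, to 9.90 in Cav1-shRNA and to 10.7 in cavtratin. Against AP control, 15 of the 17 lay above 0 and 0 below it in Cav1-shRNA, and 11 above and 1 below in cavtratin. Of all genes, 22.4% lay above 0 and 18.5% below it in Cav1-shRNA, and 17.5% and 20.9% in cavtratin. P2ry12, a receptor of resident microglia, was at 6.87 on all 3 arrays, exactly equal as were 50.1% of all genes. The complement genes C1qa and C1qb, which resident microglia express, were 0.45 and 0.42 higher with Cav1-shRNA and differed by 0.042 and −0.090 in cavtratin. Trem2, a receptor of microglia and macrophages, had 7.51 with Cav1-shRNA and 6.95 on both other arrays. The 5 higher in cavtratin, Itgam, Ptprc, Cd68, Mpeg1 and Fcer1g, are shared with invading leukocytes. Itgam, an integrin of myeloid cells, had 6.32 in AP control, 7.15 with Cav1-shRNA and 8.0 with cavtratin, the order of arrays seen for Cd14, Tlr13 and Tlr6. The part of leukocytes in the receptor differences was not tested.

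Other cells of the eye gave other values. Lens markers had a median of 1.43 in cavtratin and 0 in Cav1-shRNA over 9 genes. At least 2-fold higher were 5 and 0 of them, where 0.703% and 0.176% of all genes were. The 5 were all crystallin genes, Cryaa, Cryba1, Cryba4, Crygs and Cryba2. In AP control Cryaa, Cryba1 and Crygs already lay above the floor, at 9.18, 7.87 and 7.76. Cryba4 and Cryba2 lay below it there, at 6.11 and 6.20. The other lens genes did not reach 2-fold in cavtratin: Mip was at −0.059, Lim2 at 0, Bfsp2 at 0.11 and Bfsp1 at 0.52. Of these, Mip alone lay above the floor. The mean level of the 9 was 6.72 in AP control, 6.68 with Cav1-shRNA and 8.08 with cavtratin. At or above the floor lay 4, 4 and 6 of the 9, where 11298, 11362 and 11406 of all 22180 genes did. The 9 lens markers ranged from 5.18 to 9.18, from 5.22 to 8.96 and from 5.29 to 12.0 in the same order. Their part in the cavtratin differences was not tested. Muller glia and vascular endothelium markers had medians of 0 and 0.050 in cavtratin and of 0.078 and 0.22 in Cav1-shRNA over 10 genes each, with 0 at least 2-fold apart. Rod markers had medians of −0.0012 and 0, and retinal pigment epithelium markers had 0.048 and 0. T and B lymphocyte markers were below the floor on every array, all 7 of them.

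**Figure D4:**
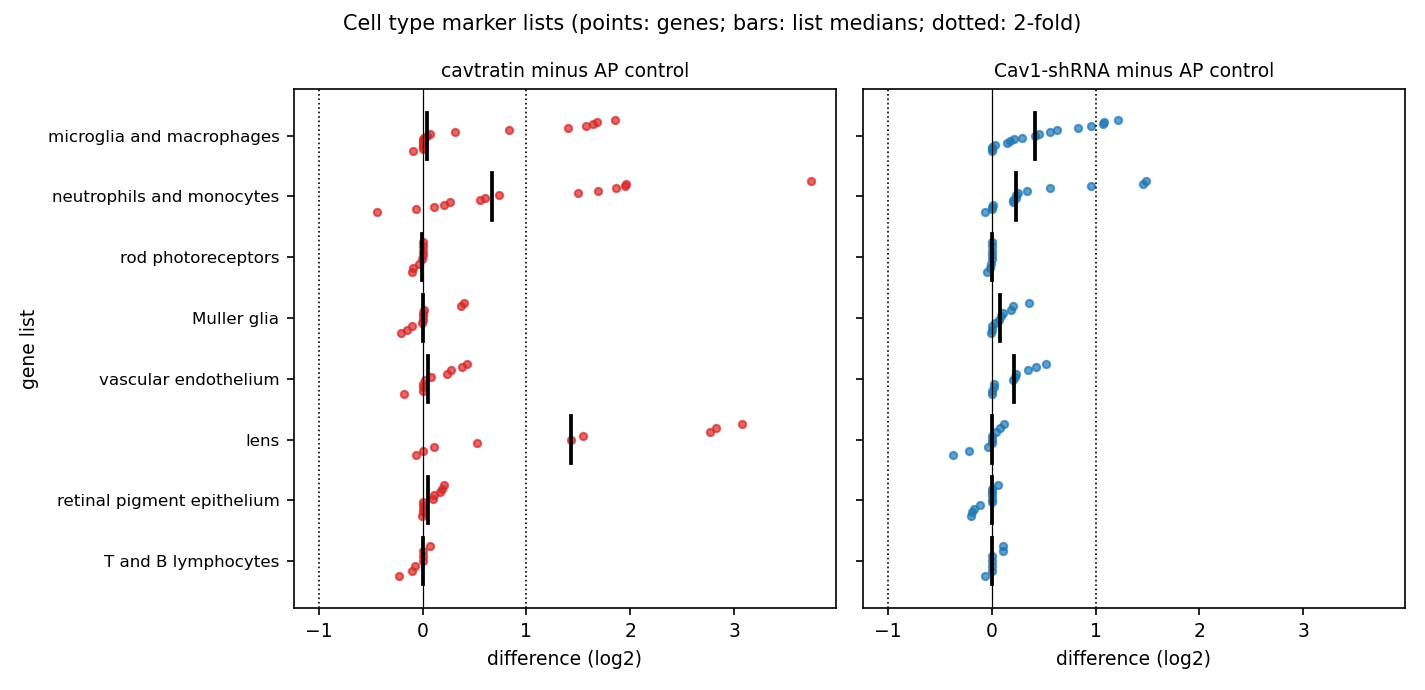
Differences from AP control on the log2 scale (horizontal axes) for each marker gene (points) of 8 cell types (vertical axis), for cavtratin on the left and Cav1-shRNA on the right, with list medians as black bars and dotted lines at 2-fold. Neutrophil and monocyte and lens markers have medians of 0.67 and 1.43 in cavtratin, and rod markers have medians of −0.0012 and 0.

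Genes with the most similar pair of differences from AP control were sought for Tlr6, Tlr13 and Cd14, the members that reached the floor and spanned at least 1. Likeness was the Euclidean distance over those 2 log2 differences, among 10848 genes, and with only 3 arrays sharing 1 control it is a coarse description. Closest to Tlr6 were Cd24a, a surface glycoprotein of blood and neural precursors, at a distance of 0.092, Csf3r at 0.12 and Irak3 at 0.16. Closest to Tlr13 were Slc11a1, a metal transporter of macrophage phagosomes, at 0.092, Hp, the hemoglobin-binding protein haptoglobin, at 0.099, and Pik3ap1, a signalling adaptor of leukocytes, at 0.12. Within a distance of 0.25 lay 7 genes for Tlr6, 10 for Tlr13 and 1 for Cd14. That 1 gene was Slfn4, a Schlafen gene of myeloid cells, at 0.18, with 7.42 in AP control, 7.85 with Cav1-shRNA and 10.16 with cavtratin. Next for Cd14 were Trim30b and H2-Q10, at 0.30 and 0.34. Slfn4, Trim30b and H2-Q10 belong to families of similar genes, whose probe sets can share signal.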

How the data were processed

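The deposited table gave the authors' log2 expression values for 41345 probe sets on 3 arrays. How they were summarised and normalized is not stated in the labels, and log2 was inferred from the range. A platform annotation, which can be old, named 1 gene for 23521 probe sets, several for 1814 and none for 16010; only the first were used, with the highest-mean probe set per gene. Of 198 list symbols, 12 matched no such probe set. A gene was counted as apart when 2 arrays differed by the stated fold and the higher was at or above the floor. All members were named, and from each pathway list the genes at least 2-fold apart from AP control, or otherwise the 2 with the largest differences; other genes were added after their values were seen. The members and lists were chosen with earlier results of these data known. With 1 array per group no test was run; the number of arrays limits the precision. Counting was tested on simulated data. Python 3.11.15, numpy 2.4.6 and pandas 2.3.3 were used. Alternatives were other scalings, probe set rules, floors and fold thresholds.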

Additional observations from a re-analysis of the deposited data

How the results depend on the processing

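The 30 differences of the 10 genes moved by at most 0.058 under centring or quantile normalization, each less than the spread between probe sets, and none of those at least 2-fold changed sign. Signs turned for Ly96 between Cav1-shRNA and cavtratin (0.042 centred, 0.032 quantile normalized) and for Myd88 between Cav1-shRNA and AP control (0.0040 centred). The counts of genes at least 2-fold apart, 3 in cavtratin and 1 in Cav1-shRNA against AP control and 2 between these arrays, were the same under these settings, with no floor and with a floor at the 25th percentile. With a floor at the 75th percentile they were 1, 0 and 1, since Tlr6 and Tlr13 lie below it. At 1.5-fold they were 5, 4 and 4, and at 3-fold 3, 0 and 1. No paired analysis was possible because each group had 1 array. Averaging a gene's probe sets could change none of these values, since each of the 10 genes has 1. Values below the floor limit Tlr4 and Tlr7 on all 3 arrays and the folds of Tlr1, Tlr6, Tlr13 and Ly96 against AP control. They also limit the fold of Tlr6 between Cav1-shRNA and cavtratin. The number of arrays limits every value.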
